A study of Mus musculus with 6 samples.

Results

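Mitochondria in animal cells fuse and divide, and the sheets of their inner membrane are folded into cristae. Mitofusins (Mfn1 and Mfn2) join outer membranes and Opa1 joins inner membranes and holds cristae junctions tight, while the dynamin Dnm1l is recruited from the cytosol by outer membrane receptors such as Mff to cut the organelle. The proteases Oma1 and Yme1l1 cut Opa1 from its long, fusion-active forms into short forms, and prohibitins (Phb and Phb2) build ring-shaped scaffolds in the inner membrane that shield Opa1 from that processing. In the colon, fuel oxidation in these organelles is high in differentiated epithelial cells, which use butyrate. The 10 genes described here (Mfn1, Mfn2, Opa1, Dnm1l, Fis1, Mff, Oma1, Yme1l1, Phb and Phb2) were taken by gene symbol, and all 10 were found among the 55487 genes of the count tables and passed the filter on low counts.

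The libraries held polyadenylated RNA of purified colonic crypt cells from C57BL/6 mice aged 4 weeks. Mutants were M14(f/f);Villin-Cre mice (3 libraries) and controls were M14(f/f) mice (3 libraries), so the floxed M14 alleles, read here as Mettl14, were shared by both groups. The Mettl14 protein partners the methyltransferase Mettl3 in placing N6-methyladenosine (m6A) on RNA. Cre under the Villin promoter acts in epithelial cells of the gut, and because no control carried it, effects of Cre and of the Mettl14 loss cannot be told apart. The series speaks of 3 pairs of mice without saying whether each library is 1 mouse, so p-values measure the spread between these libraries.

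Totals ran from 24181631 to 34842591 counts in mutants and from 32165546 to 35183636 in controls. Values are CPM (counts scaled to a common library total) after TMM scaling, and differences were tested with edgeR across 18539 genes at an adjusted p under 0.05. Mettl14 itself stood at 14.0, 13.8 and 10.5 CPM in mutants and at 26.2, 20.9 and 22.04 CPM in controls. The epithelial markers Epcam, Vil1 and Cdx2 were detected throughout, at means of 1621, 677 and 201 CPM in mutants and 2180, 873 and 183 CPM in controls. Mutant 1 and mutant 2 stood apart in Xist, with 652 and 53.1 CPM, against 1.504 CPM in mutant 3 and 1.28 to 1.77 CPM in controls. The Y-linked gene Ddx3y was at 0.541 CPM in mutant 1 and at 38.0 and 44.2 CPM in the other mutants, against 53.6 to 58.4 CPM in controls. Mutant 2 thus held RNA of both Xist and Ddx3y, and the groups were not balanced in sex-linked transcripts. Summed fibroblast markers (6 genes, 4 of them lower) lay at 84.6 to 102 CPM in mutants and 194 to 226 CPM in controls. Summed macrophage and dendritic cell markers (12 genes, 11 higher and 1 lower) lay at 73.1 to 102 CPM in mutants and 35.3 to 44.6 CPM in controls, and summed epithelial markers (10 genes, 5 lower and 1 higher) at 9477 to 11626 CPM in mutants and 12423 to 13886 CPM in controls. Neutrophil markers (4 tested, 3 higher) summed to 12.7 to 39.1 CPM in mutants and 8.90 to 13.1 CPM in controls, and endothelial markers (5 genes, 2 higher) to 19.7 to 21.8 CPM in mutants and 10.4 to 11.3 CPM in controls. Smooth muscle markers (5 genes, 4 lower) summed to 49.5 to 51.8 CPM in mutants and 59.5 to 69.3 CPM in controls. T cell markers (7 genes, 2 higher) summed to 5.72 to 9.28 CPM in mutants and 3.85 to 5.97 CPM in controls. Of the B and plasma cell markers 1 was tested and did not pass, and of 3 tested neuron and glia markers 1 was higher and 1 lower. No marker of these lists was at 0 in all libraries, and the part of these shifts in the results below was not tested. In bulk libraries, fewer cells of a type and less RNA per cell cannot be told apart.

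Of the 10 genes, 4 fell in mutants (Opa1, Mff, Yme1l1 and Phb), 1 rose (Oma1) and 5 did not pass (Mfn1, Mfn2, Dnm1l, Fis1 and Phb2). Across all tested genes 46.3% passed, 22.8% lower and 23.5% higher, so a share of 5 in 10 lies near the background. The median log2 fold change of the 10 was -0.17, beside 0.0063 over all tested genes. Mutant and control CPM ranges were separate for 7 of the 10 (6 lower and 1 higher in mutants), and were separate for 56.9% of all tested genes (28.2% lower and 28.7% higher). Without mutant 1 and mutant 2 the same 5 genes passed, in a fit where mutant 3 stands alone and is assumed to vary like the controls. Within the set the sizes were unequal, and only for Phb did the change pass a test against 1.5-fold (edgeR adjusted p = 0.0038), which 14.8% of all tested genes passed.

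**Figure D1:**
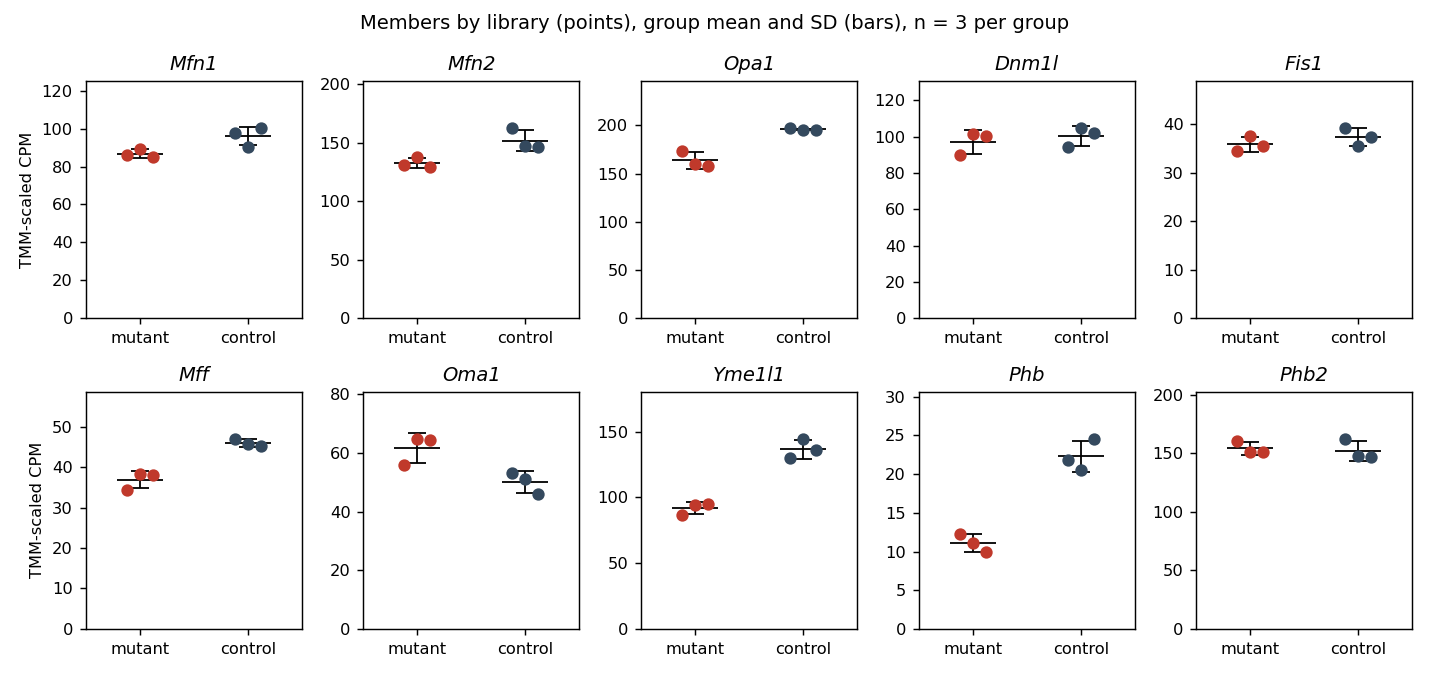
TMM-scaled CPM of the 10 genes in each library (points; mutants left, controls right), with the group mean and SD (bars) and an axis from 0 in each panel. Relative to their levels, Phb (log2 fold change -1.01) and Yme1l1 (-0.57) differ most between the groups, and Dnm1l, Fis1 and Phb2 overlap.

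Of the genes that drive fusion, Opa1 fell in mutants, and the mitofusin genes Mfn1 and Mfn2 did not pass the test. Opa1 (ENSMUSG00000038084.16, plus strand, chr16:29579334-29654884 on GRCm38), the inner membrane fusion GTPase, had 174, 159.7 and 157 CPM in mutants, against 197, 195 and 196 CPM in controls. All mutant libraries were below all control libraries, and the controls were nearly identical. Opa1 averaged 164 ± 8.74 CPM in mutants and 196 ± 0.729 CPM in controls (SD, n = 3 each), a log2 fold change of -0.26 (SE 0.070, edgeR adjusted p = 0.0126). Scaled by library totals alone its adjusted p was 0.0529 with edgeR, at a log2 fold change of -0.19.

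Mfn2 (ENSMUSG00000029020.13, minus strand, chr4:147873599-147904704), the mitofusin that also tethers mitochondria to the endoplasmic reticulum, had 131, 138 and 129 CPM in mutants, against 162, 147 and 146 CPM in controls. Its ranges did not overlap, but it missed the threshold, with a log2 fold change of -0.19 (95% interval -0.36 to -0.032, edgeR adjusted p = 0.0514). It passed with upper quartile scaling (edgeR adjusted p = 0.0363), without the low-count filter (edgeR adjusted p = 0.0474) and with limma-voom (adjusted p = 0.0442). Mfn1 (ENSMUSG00000027668.13, plus strand, chr3:32529465-32579239), its partner in outer membrane fusion, had 86.2, 89.4 and 84.9 CPM in mutants, against 97.6, 90.5 and 100.1 CPM in controls. The gap between the highest mutant and the lowest control was small, and the log2 fold change of -0.15 did not pass (95% interval -0.30 to 0.0091, edgeR adjusted p = 0.112). The log2 ratio of Mfn1 to Mfn2 CPM was -0.61 ± 0.013 in mutants and -0.66 ± 0.098 in controls (SD, n = 3 each), with overlapping ranges.

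The fission genes divided between the receptor Mff and the others. Mff (ENSMUSG00000026150.14, plus strand, chr1:82724890-82752394), the outer membrane receptor that brings Dnm1l to sites of division, had 34.4, 38.4 and 37.9 CPM in mutants, against 46.9, 45.8 and 45.2 CPM in controls. Every mutant library was below every control library. Mff averaged 36.9 ± 2.17 CPM in mutants and 45.9 ± 0.882 CPM in controls (SD, n = 3 each), a log2 fold change of -0.31 (SE 0.070, edgeR adjusted p = 0.00495). Dnm1l (ENSMUSG00000022789.15, minus strand, chr16:16312230-16358959), the dynamin that constricts the organelle, had 89.8, 102 and 100.1 CPM in mutants, against 94.3, 105 and 102 CPM in controls. Groups overlapped, and the interval of its log2 fold change ran from -0.22 to 0.13 (edgeR adjusted p = 0.659). Fis1 (ENSMUSG00000019054.13, plus strand, chr5:136953275-136966234), a small outer membrane protein linked to division, had 34.6, 37.6 and 35.5 CPM in mutants, against 39.2, 35.5 and 37.5 CPM in controls. Here too the groups overlapped, with an interval from -0.22 to 0.10 (edgeR adjusted p = 0.531). As Mff fell and Fis1 did not pass, the log2 ratio of Fis1 to Mff CPM was 0.0048, -0.032 and -0.097 in mutants, above all controls at -0.26, -0.37 and -0.27.

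**Figure D2:**
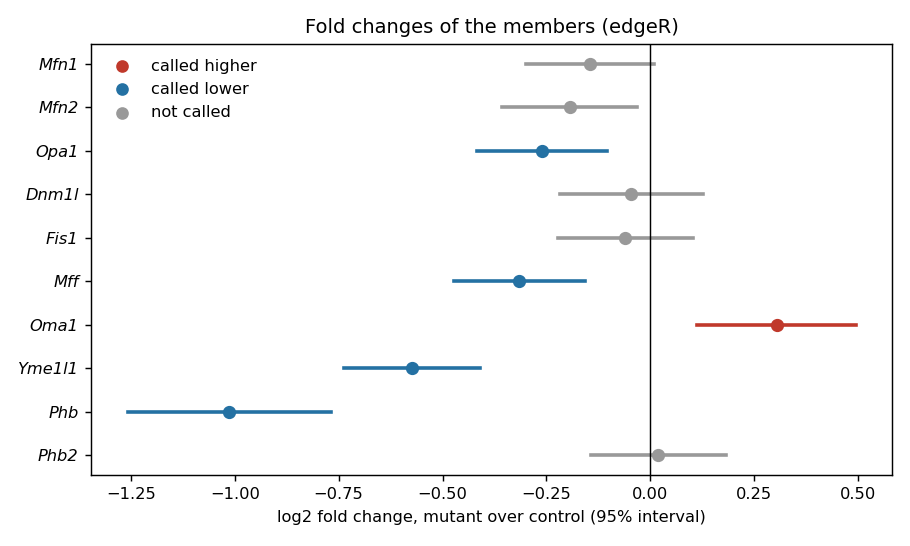
Log2 fold change of mutants over controls for each of the 10 genes (points) with its 95% interval (lines) from edgeR, coloured by call. Phb (-1.01) and Yme1l1 (-0.57) lie farthest to the left and Oma1 (0.30) is the point called higher.

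The proteases that process Opa1 moved in opposite directions. Oma1 (ENSMUSG00000035069.3, plus strand, chr4:103313812-103371868), a stress-activated metalloprotease of the inner membrane, had 55.9, 64.7 and 64.5 CPM in mutants, against 53.1, 51.1 and 45.9 CPM in controls. Mutant 1 lay closest to the controls, but no value overlapped. Oma1 averaged 61.7 ± 5.02 CPM in mutants and 50.01 ± 3.71 CPM in controls (SD, n = 3 each), a log2 fold change of 0.30 (SE 0.085, edgeR adjusted p = 0.0157). That call was lost without control 3 (log2 fold change 0.23, edgeR adjusted p = 0.0922), without mutant 2 (0.27, edgeR adjusted p = 0.0560) and without mutant 3 (0.27, edgeR adjusted p = 0.0528).

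Yme1l1 (ENSMUSG00000026775.9, plus strand, chr2:23156369-23199260), the ATP-dependent protease of the inner membrane that cuts Opa1 under basal conditions, had 86.6, 93.9 and 94.7 CPM in mutants, against 129.7, 144 and 136 CPM in controls. The groups were far apart relative to their spread. Yme1l1 averaged 91.7 ± 4.47 CPM in mutants and 137 ± 7.26 CPM in controls (SD, n = 3 each), a log2 fold change of -0.57 (SE 0.074, edgeR adjusted p = 1.91e-04). Leaving out single libraries gave values from -0.62 to -0.54. The log2 ratio of Oma1 to Yme1l1 CPM was -0.63, -0.54 and -0.55 in mutants, above all controls at -1.29, -1.50 and -1.56. The difference of the group means was 0.88 on the log2 scale, toward Oma1 in mutants. CPM is not scaled for length, so equal CPM does not mean equal numbers of transcripts. Per kilobase of annotated exon (FPKM), Oma1 was above Yme1l1 in both groups. The means were 28.8 and 11.5 FPKM in mutants, and 23.3 and 17.05 FPKM in controls. By this measure the genes lay farther apart in mutants. Annotated exons add to 2144 bases for Oma1 and 8009 for Yme1l1, beside 1915 and 4707 in their principal transcripts. The order of these genes in controls therefore depends on the length used.

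**Figure D3:**
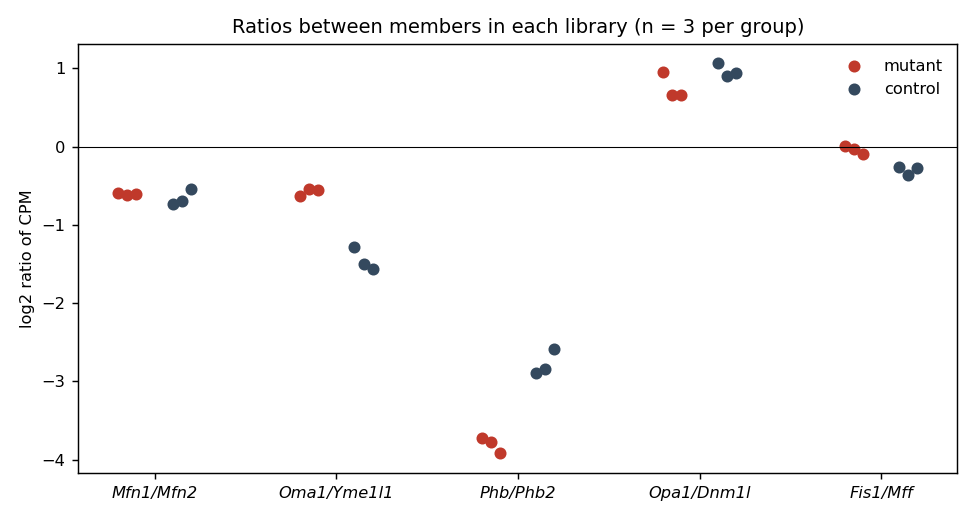
Log2 ratio of CPM between pairs of these genes in each library (points, mutants left of controls in each column). Mutant and control points are separate for Oma1/Yme1l1, Phb/Phb2 and Fis1/Mff and overlap for Mfn1/Mfn2 and Opa1/Dnm1l.

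Of the prohibitins, which assemble together into the same rings, Phb fell and Phb2 did not pass. Phb (ENSMUSG00000038845.11, plus strand, chr11:95666957-95680773) had 12.2, 11.05 and 9.95 CPM in mutants, against 21.8, 20.6 and 24.5 CPM in controls. The lowest control was well above the highest mutant. Phb averaged 11.1 ± 1.13 CPM in mutants and 22.3 ± 2.01 CPM in controls (SD, n = 3 each), a log2 fold change of -1.01 (SE 0.11, edgeR adjusted p = 6.79e-05). Values with single libraries left out lay between -1.10 and -0.94.

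Phb2 (ENSMUSG00000004264.17, plus strand, chr6:124712336-124716950), which also acts as a mitophagy receptor, had 161, 151 and 151 CPM in mutants, against 162, 147 and 147 CPM in controls. These ranges overlapped almost fully, and the interval of the log2 fold change ran from -0.14 to 0.18 (edgeR adjusted p = 0.847). The log2 ratio of Phb to Phb2 CPM was -3.72, -3.78 and -3.92 in mutants, below all controls at -2.89, -2.84 and -2.59.

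The level of Phb is uncertain because its sequence has near-identical copies. In GENCODE vM21 transcripts, the processed pseudogene Gm7666 matched 819 bases of the Phb transcript at 99.9% identity, and 51.5% of that 1799-base transcript lay in copies of at least 98% identity. Fragments with several alignments were not counted, so the counts of 276 to 364 in mutants and 694 to 764 in controls, the FPKM of Phb and its ratio to Phb2 leave out fragments that align equally well to a copy. Gm7666 itself held 5 to 17 counts in mutants and 14 to 19 in controls. A transcript of the gene Fyb matched 339 bases of Phb at 100% identity, and Fyb as a whole held 373 to 486 counts in mutants and 315 to 395 in controls. Gm2245 matched 150 bases at 100% identity and held 9 to 20 counts in mutants and 4 to 5 in controls. For Mfn2, Opa1, Fis1, Oma1 and Phb2 no copy of at least 90% identity over 100 bases was found. Overlaps with other genes on the same strand were limited to 155 bases of Phb2 shared with the gene Gm23547.

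**Figure D4:**
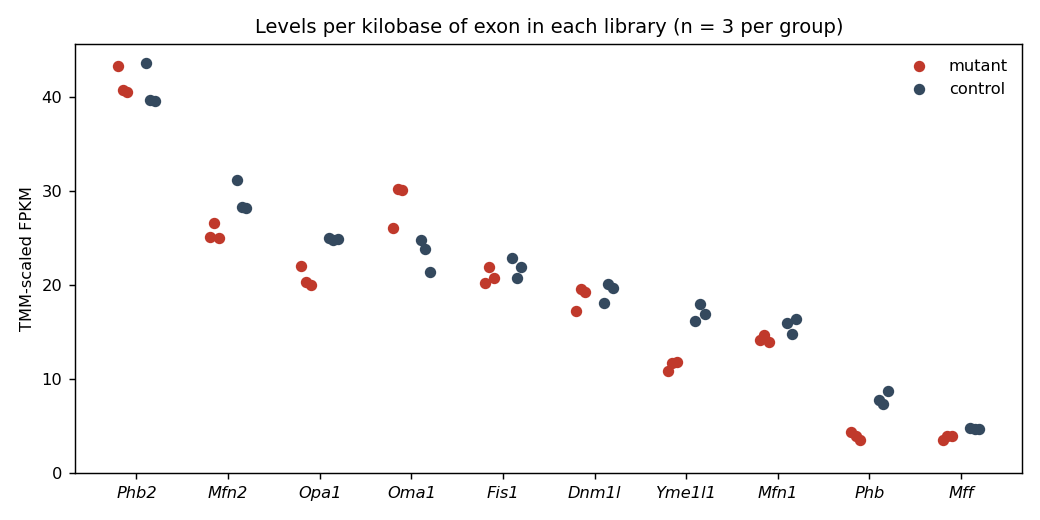
TMM-scaled CPM per kilobase of annotated exon (FPKM) for each gene and library (points; mutants left of controls), in the order of the control means. Phb2 is highest in both groups, Mff and Phb are lowest, and Oma1 stands above Opa1 in mutants but not in controls.

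Levels between genes were compared per kilobase of annotated exon (FPKM). In mutants the order was Phb2 (41.5 ± 1.52 FPKM), Oma1 (28.8 ± 2.34), Mfn2 (25.5 ± 0.871), Fis1 (20.9 ± 0.905), Opa1 (20.8 ± 1.11), Dnm1l (18.7 ± 1.24), Mfn1 (14.2 ± 0.375), Yme1l1 (11.5 ± 0.558), Phb (3.95 ± 0.403) and Mff (3.78 ± 0.222). The mutant ranges of Oma1 and Mfn2, of Fis1 and Opa1, and of Phb and Mff overlapped, so those neighbours did not differ beyond their spread. In controls the order was Phb2 (40.9 ± 2.30 FPKM), Mfn2 (29.2 ± 1.72), Opa1 (24.9 ± 0.0926), Oma1 (23.3 ± 1.73), Fis1 (21.8 ± 1.07), Dnm1l (19.3 ± 1.03), Yme1l1 (17.05 ± 0.907), Mfn1 (15.7 ± 0.811), Phb (7.95 ± 0.717) and Mff (4.71 ± 0.0904). Among controls, Oma1 and Fis1 overlapped, as did Yme1l1 and Mfn1. By mean, Oma1 thus stood next to Phb2 in mutants, where it overlapped Mfn2, and below Mfn2 and Opa1 in controls. The means of Yme1l1 and Mfn1 changed places, but their order in controls was not clear of the spread. Annotated exon length counts all isoforms together, which lowers the value of a gene such as Mff, whose exons add to 9757 bases beside 1894 in its principal transcript. Yme1l1 is affected too, with 8009 bases beside 4707.

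Promoter windows from the RefSeq table (GRCm38.p6) are shown for Opa1, Yme1l1, Oma1, Phb and Phb2, as the gene of the inner membrane fusion GTPase, the genes of the proteases that cut it and those of the prohibitins. Each window holds 250 bases before and 30 bases after the RefSeq start, and capitals mark exact matches to motif letters on either strand. All 5 lie on the plus strand, at chr16:29579084-29579363 (Opa1), chr2:23156255-23156534 (Yme1l1), chr4:103313596-103313875 (Oma1), chr11:95666707-95666986 (Phb) and chr6:124712039-124712318 (Phb2).
Opa1: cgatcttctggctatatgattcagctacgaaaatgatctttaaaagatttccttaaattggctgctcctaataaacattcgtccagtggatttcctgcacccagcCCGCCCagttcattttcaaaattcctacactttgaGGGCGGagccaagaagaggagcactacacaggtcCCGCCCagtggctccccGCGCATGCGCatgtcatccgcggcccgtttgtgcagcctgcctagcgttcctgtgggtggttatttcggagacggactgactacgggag
Yme1l1: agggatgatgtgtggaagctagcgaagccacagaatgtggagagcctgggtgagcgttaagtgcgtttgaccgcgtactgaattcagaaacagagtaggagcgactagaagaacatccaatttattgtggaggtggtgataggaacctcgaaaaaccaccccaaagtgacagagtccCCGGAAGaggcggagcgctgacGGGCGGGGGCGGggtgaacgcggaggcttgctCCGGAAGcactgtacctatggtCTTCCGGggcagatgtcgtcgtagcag
Oma1: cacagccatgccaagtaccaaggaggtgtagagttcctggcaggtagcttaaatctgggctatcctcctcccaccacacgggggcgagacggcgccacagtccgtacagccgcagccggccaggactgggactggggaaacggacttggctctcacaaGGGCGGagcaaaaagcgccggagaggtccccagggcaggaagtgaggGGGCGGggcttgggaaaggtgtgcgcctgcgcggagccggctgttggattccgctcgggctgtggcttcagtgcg
Phb: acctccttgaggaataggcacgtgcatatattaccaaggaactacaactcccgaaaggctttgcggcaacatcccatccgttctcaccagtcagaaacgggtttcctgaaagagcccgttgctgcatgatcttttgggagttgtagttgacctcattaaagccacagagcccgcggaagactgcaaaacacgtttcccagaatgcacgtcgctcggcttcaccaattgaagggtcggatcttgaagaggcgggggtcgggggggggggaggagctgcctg
Phb2: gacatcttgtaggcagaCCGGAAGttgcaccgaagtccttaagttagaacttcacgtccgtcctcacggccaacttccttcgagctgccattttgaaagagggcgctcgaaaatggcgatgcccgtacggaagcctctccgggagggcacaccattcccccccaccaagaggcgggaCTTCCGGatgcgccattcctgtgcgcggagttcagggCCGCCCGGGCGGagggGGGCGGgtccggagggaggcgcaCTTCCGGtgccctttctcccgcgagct
The letters searched were a 10-base palindrome for NRF1 (the capitals nearest the start in the Opa1 line), CCGGAAG for GABPA, AAGGTCA for ERRA, AAGATGGC for YY1, TGACGTCA for CREB and GGGCGG for SP1, and no match overlapped a match of another motif. The NRF1 letters stood in the Opa1 window, 59 bases before the start, and in 0.91% of all 32851 windows. The GABPA letters stood in 3 places in the Yme1l1 window and in 3 in that of Phb2, and also in windows of Mfn1, Fis1 and Dnm1l, while 8.45% of all windows held them. Of the genes with this match, Yme1l1 fell and Phb2, Mfn1, Fis1 and Dnm1l did not pass. No match was found for the called genes Opa1, Mff, Oma1 and Phb or for Mfn2, which did not pass. The match thus stood in called and uncalled genes, and a link to the calls was not tested. SP1 letters were in at least 1 window of 9 of the 10 genes, with Phb the exception. Counted by window they stood in 12 windows of these genes, some of which have several, and in 34.7% of all windows. The 12 is a count and not a share, and the overlapping windows of Mff hold the same match. A share of genes is not on the same scale as a share of windows. No window of the 10 genes held the ERRA, YY1 or CREB letters, which 4.46%, 2.29% and 1.74% of all windows held. A match in letters is a description and not a measured site.

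Since Mettl14 writes m6A, mostly in a short consensus whose commonest form is GGACT, the letters GGACT were counted in 1 principal coding transcript per gene (GENCODE vM21, GRCm38). Sites within 200 bases of the end of the coding part, where m6A is known to gather, are shown with 8 bases on each side. GGACT is in capitals.
Mfn1, 31 bases after the end of the coding part: gaggaagcGGACTtggaagat
Mfn2, 170 bases after the end of the coding part: accaacaaGGACTggacagct
Fis1, 90 bases before the end of the coding part: agaaagatGGACTggtaggca
Fis1, 33 bases before the end of the coding part: gcctggctGGACTcattggac
Fis1, 24 bases before the end of the coding part: gactcattGGACTggctgtct
Phb2, 115 bases after the end of the coding part: catgtgatGGACTtttctgta
Such sites were found in 4 of the 10 genes (Mfn1, Mfn2, Fis1 and Phb2), beside 39.9% of the 14183 tested coding genes. None of the 5 genes called in mutants had one, and all 4 genes with one were among those that did not pass. The shares among all called and all uncalled genes were not counted, and the search was chosen after the calls were seen. This split is therefore a description only, and a link to the calls was not tested. Per kilobase, GGACT was densest in Fis1 (5.09), Phb2 (3.04), Oma1 (2.61) and Phb (2.22), all above the 90th percentile of tested coding genes (2.11), and sparsest in Dnm1l (0.252). Opa1 had GGACT at 11 places along 6230 bases, with 0 of them within 200 bases of the end of the coding part. These libraries do not measure m6A, and a GGACT is not a measured m6A site.

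The wider machinery was read from lists of 78 further genes, of which 76 were tested. In all, 19 rose and 26 fell in mutants, and their median log2 fold change was -0.045. Beside the 46.3% of all tested genes that passed, 45 in 76 is a somewhat larger share, which is given as a description only.

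**Figure D5:**
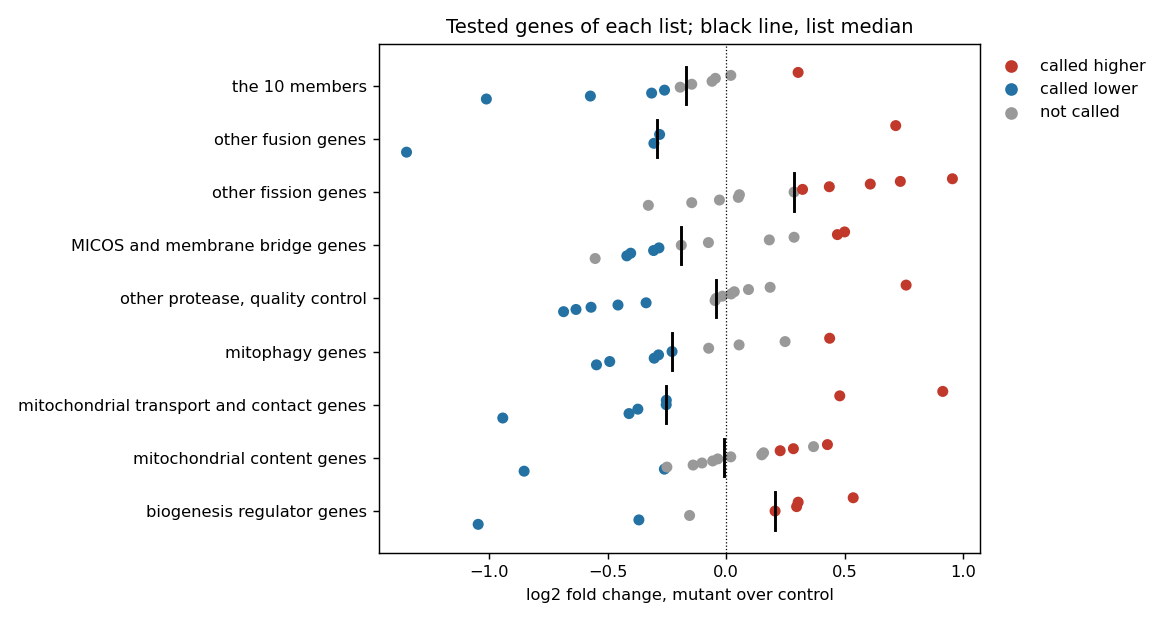
Log2 fold change of mutants over controls for the 10 genes (top row) and every tested gene of each further list (points, coloured by call), with the list median (black line). Fission genes other than the 10 include 5 called higher and 0 called lower, while mitophagy and transport genes lie mostly to the left of 0.

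Other fission genes included 5 of 11 tested that rose and 0 that fell by edgeR (0 also at an unadjusted p under 0.05, and 0 with DESeq2 and limma-voom after adjustment), with a median log2 fold change of 0.29. At an unadjusted p under 0.05 limma-voom had 2 of them lower. Mutant and control CPM ranges were separate for 5 of the 11 upward and 2 downward, beside 28.7% and 28.2% of all tested genes. Among those that rose were further Dnm1l receptors: Mief2 averaged 14.2 ± 1.71 CPM in mutants and 7.31 ± 0.888 CPM in controls (SD, n = 3 each), a log2 fold change of 0.96 (SE 0.14, edgeR adjusted p = 3.84e-04). Mief1 averaged 40.03 ± 1.58 CPM in mutants and 26.3 ± 1.69 CPM in controls (log2 fold change 0.61, SE 0.076, edgeR adjusted p = 1.64e-04). The receptor genes of Dnm1l thus went apart, Mff down and the Mief genes up. The mitochondrial phosphatase gene Pgam5 rose by 0.44 on the log2 scale.

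Of the 4 tested genes among other fusion genes, 3 fell and 1 rose. Miga1, a mitoguardin of the outer membrane that promotes fusion, averaged 9.13 ± 1.18 CPM in mutants and 23.3 ± 1.44 CPM in controls (SD, n = 3 each), a log2 fold change of -1.35 (SE 0.11, edgeR adjusted p = 1.40e-05). Its relative Miga2 fell by 0.31 on the log2 scale. Slc25a46, an outer membrane protein of the carrier family that acts on both fusion and division, rose to 101 ± 2.78 CPM in mutants, against 61.7 ± 2.94 CPM in controls (log2 fold change 0.72, SE 0.068, edgeR adjusted p = 3.23e-05).

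Cristae genes of the MICOS complex and the membrane bridge split, with 4 of 11 lower and 2 higher and a median log2 fold change of -0.19. Chchd3, a MICOS subunit, averaged 138 ± 5.42 CPM in mutants and 183 ± 4.29 CPM in controls (log2 fold change -0.40, SE 0.068, edgeR adjusted p = 0.00102). Dnajc11 and Mtx1, which belong to the bridge between the membranes, rose by 0.50 and 0.47 on the log2 scale. Without mutant 1 and mutant 2, 2 genes of this list were lower.

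Other inner membrane protease and quality control genes fell in 5 of 13 and rose in 1. Htra2, a protease of the intermembrane space, was the one that rose, at 32.4 ± 2.08 CPM in mutants and 19.1 ± 0.920 CPM in controls (log2 fold change 0.76, SE 0.081, edgeR adjusted p = 6.52e-05). Dele1, which is cut by Oma1 under mitochondrial stress and relays that stress to the cytosol, averaged 30.1 ± 1.59 CPM in mutants and 44.7 ± 2.91 CPM in controls (log2 fold change -0.57, SE 0.078, edgeR adjusted p = 2.86e-04). Prelid1, a phospholipid carrier between the membranes, fell by 0.63 on the log2 scale. The count of higher genes was 2 without mutant 1.

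Mitophagy genes were lower in 5 of 9 and higher in 1. The kinase gene Pink1, which marks damaged mitochondria, averaged 37.1 ± 2.25 CPM in mutants and 54.2 ± 3.78 CPM in controls (log2 fold change -0.55, SE 0.079, edgeR adjusted p = 4.03e-04), and the receptor gene Bnip3l fell by 0.49 (edgeR adjusted p = 0.0519 without mutant 1 and mutant 2). Mul1, an outer membrane ubiquitin ligase, rose by 0.44 on the log2 scale. The count of lower genes was 2 without control 1 or without mutant 3, and 3 without control 3, without mutant 2, or without mutant 1 and mutant 2. Scaled by library totals alone it was 2.

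All 7 tested genes of mitochondrial transport and contact passed, 5 lower and 2 higher, and 3 of them were lower without mutant 1 and mutant 2 or scaled by library totals alone. Rmdn3, a tether to the endoplasmic reticulum, averaged 31.5 ± 3.66 CPM in mutants and 60.4 ± 4.26 CPM in controls (log2 fold change -0.94, SE 0.097, edgeR adjusted p = 5.21e-05). Trak2, an adaptor between mitochondria and motor proteins, rose to 183 ± 18.2 CPM in mutants, against 96.96 ± 4.08 CPM in controls (log2 fold change 0.91, SE 0.086, edgeR adjusted p = 3.01e-05). Pdzd8, a lipid transfer protein of contact sites, rose by 0.48 on the log2 scale.

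General content genes did not move together: 3 of 14 rose, 2 fell and 9 did not pass. Their median log2 fold change was -0.0082. Summed over the 14, they held 1794 to 1959 CPM in mutants and 1795 to 1966 CPM in controls. The outer membrane channel gene Vdac3 averaged 22.9 ± 1.90 CPM in mutants and 41.3 ± 4.96 CPM in controls (log2 fold change -0.85, SE 0.10, edgeR adjusted p = 1.40e-04), and Vdac1 fell by 0.26. Tomm40, the import channel of the outer membrane, rose by 0.43 (edgeR adjusted p = 0.0615 without mutant 1 and mutant 2). The call of Vdac1 was lost without control 1 (edgeR adjusted p = 0.0674), control 3 (0.0670) or mutant 3 (0.0823) and scaled by library totals alone (0.109). The count of higher genes in this list was 1 without control 2, control 3, mutant 2 or mutant 3, and 0 by edgeR without mutant 1 and mutant 2 (2 at an unadjusted p under 0.05), while that of lower genes was 1 without control 1, control 3 or mutant 3 and scaled by library totals alone.

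Of 7 regulators of mitochondrial biogenesis 4 rose and 2 fell. Ppargc1a, the coactivator that drives mitochondrial gene programmes, averaged 34.6 ± 1.90 CPM in mutants and 71.5 ± 3.51 CPM in controls (log2 fold change -1.05, SE 0.073, edgeR adjusted p = 5.23e-06). Its partner receptor gene Esrra fell by 0.37 and the related coactivator gene Pprc1 rose by 0.54 on the log2 scale. The count of higher genes was 2 without control 3 or without mutant 1 and mutant 2.

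For the genes with the smallest p, Phb and Yme1l1, the most similar profiles were sought among 10300 named genes with a mean of at least 5 CPM. Likeness was the Euclidean distance between log2 CPM profiles over the 6 libraries, each centred on its mean, and with 2 groups it mostly follows the size of the group difference. Nearest to Phb were Rmdn3 (distance 0.161), the tryptase gene Tpsg1 (0.178) and Ppargc1a (0.178). Nearest to Yme1l1 were the calcium pump gene Atp2a3 (0.0458), Azi2, which encodes an adaptor of the kinase Tbk1 (0.0539), and Ormdl1, a regulator of sphingolipid synthesis (0.0645).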

How the data were processed

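RNA-seq gene counts were deposited by the authors, 1 table per library. Per the submitters' processing notes, the tools were Trim Galore 0.6.5 for trimming and STAR 2.6.1d for alignment, and the build was GRCm38. Fragments were counted with featureCounts 1.6.4 against GENCODE vM25, on the strand of read 1 and without an option for multiple alignments, per the file headers, so near-identical copies lose reads. Libraries were made from polyadenylated RNA with a SMARTer Stranded kit, per the labels' protocols. Library totals ran from 24181631 to 35183636 counts, and where depth was lowest a count of 0 (limit of 3 counts, counting error only) allows 0.124 CPM. The smallest count of any of the 10 genes was 276, a counting error of 6.02%.

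Testing used edgeR 4.0.16 under R 4.3.3: filterByExpr (minimum count 10, minimum total 15), which kept 18539 of 55487 genes, TMM scaling, and the quasi-likelihood F test of genotype, 2-sided, with Benjamini-Hochberg adjustment over all tested genes at 0.05. Each log2 fold change is mutant over control. SE was taken from the F statistic, and intervals are 95%. The code was tested on simulated counts, in which false calls exceeded the nominal rate, most with DESeq2, then with the replicate block, and less with edgeR and limma-voom; the criterion for passing, first set for every tool, was then limited for false calls to the main edgeR test. DESeq2 1.42.0, limma-voom (limma 3.58.1) and other settings were alternatives (18 in all), among them leaving out each library, and mutant 1 and mutant 2 together, which earlier results had set apart by sex-linked genes.

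The 10 genes and the lists were chosen with earlier results of these data known. All 10 were named, with Mettl14, up to 3 tested genes of smallest p from each list, and the 3 nearest profiles of the 2 genes with the smallest p; Epcam, Vil1, Cdx2, Xist, Ddx3y and copies or overlaps of the 10 genes were named outside that rule. Promoter windows came from RefSeq. The ratios between the 10 genes, the search for copies, the motif letters and the GGACT search were chosen after the calls were seen, and the choice of 1 transcript per gene for GGACT was changed once, from the longest coding part to the longest complete principal transcript, after its first output. All 10 genes matched that table, some with several windows. No library repeated another of its group, since pairs within a group had a mean chi-square of 14.04 to 90.8 per gene.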

Additional observations from a re-analysis of the deposited data

How the results depend on the processing

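The 5 calls among the 10 genes all stood with RLE scaling, a minimum count of 50, DESeq2, limma-voom, removal of the ribosomal RNA row CT010467.1, the replicate block and without mutant 1 and mutant 2, and Opa1 alone was lost with library totals only. DESeq2 and the replicate block made more false calls on simulated counts than edgeR or limma-voom, so their calls carry less weight. With single libraries left out, the number of the 10 called higher ranged from 0 to 1 and the number called lower stayed at 4. At an unadjusted p under 0.05 with edgeR, 1 of the 10 was higher in each of these fits. In the same fits 14 to 18 of the other listed genes were higher and 20 to 26 lower. Of all tested genes, 3574 to 4335 were higher and 3448 to 4236 lower. Against a 1.5-fold change, edgeR called 0 of the 10 higher (0 also at an unadjusted p under 0.05) and 1 lower, 2 of the other listed genes higher and 4 lower, and 1720 of all tested genes higher and 1027 lower. At a threshold of 0.01, edgeR called 0 of the 10 higher and 3 lower, and 3051 of all tested genes higher and 2824 lower. At an unadjusted p under 0.05 edgeR had 1 of the 10 higher, as did DESeq2 at an adjusted p under 0.05. Without a filter on low counts the median log2 fold change of all genes was 0.19, against 0.0063 with it. No named gene reversed a call in these settings.

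The replicate numbers in the labels gave same-numbered mutants and controls correlations of -0.12, -0.065 and -0.14 in their deviations from the group means. Pairs with different numbers ran from -0.014 to 0.13. Deviations cancel within a group, so these correlations depend on each other. No shared deviation was seen between same-numbered libraries, but whether they were paired in the experiment cannot be told from these values. With the replicate block 1 of the 10 was higher and 4 lower, as without it, and 3789 and 3614 of all genes were higher and lower; Vdac1 lost its call (edgeR adjusted p = 0.0611). In the same fit 3 mitophagy genes were lower, and 1 content gene was higher and 1 lower. Counting error was at most 6.02% for the 10 genes, and with 3 libraries per group small differences such as that of Mfn1 could not be told from the spread.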
